A study of Mus musculus with 6 samples.

Results

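The 159 probes described here are those whose names begin with mouselincRNA on a lncRNA microarray of mouse liver and whose spots passed the scanner's background flag on 3 or more of the 6 arrays. They were taken from 649 probes of that name, so 24.5% passed and 490 did not, and 32336 of the 60915 probes on the whole array passed the same filter. A probe name holds a lincRNA number, a sign, taken here as the strand the probe reads, and the ending _P1, which is left out below. The members were thus chosen by measured signal, through the background flags, so how often a member was above background is a description of the choice and not a result. The flags were counted over all arrays without regard to stage, except that a probe above background on the 3 arrays of 1 stage alone passed only because it was high there.

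Long intergenic non-coding RNAs, or lincRNAs, are long transcripts that lie between protein-coding genes and carry no long reading frame. Many are made in 1 tissue or at 1 stage of development, and transcription from opposite strands of the same region is common among them. Near birth the mouse liver still makes blood cells beside its hepatocytes, while the adult liver is mainly a metabolic organ, so RNA from the whole organ reflects a different mixture of cells at each stage. The names on this array give no gene for these probes, so no function is assigned to any of them here.

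Liver from male C57/BL6 mice was compared between fetuses at embryonic day 18 and adults 2 months old, with 3 arrays per stage and no treatment. The design asks which non-coding transcripts differ in level between the stages. The samples are called independent experiments, but it is not stated if fetal livers were pooled, so the p-values measure the spread between these samples, which may be partly technical. Levels are log2 signals set to 0 at each array's 75th percentile, and every change is fetal minus adult on that log2 scale. A probe was called changed at a limma adjusted p under 0.05, with Benjamini-Hochberg adjustment over all 32336 probes, and a change of at least 2-fold.

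Of the 30 marker genes listed for the cell types of liver, 1 has a named probe on this array. Tfrc, the transferrin receptor that erythroid precursors carry in large amounts, stood at 4.73, 4.49 and 4.26 on adult arrays 1 to 3 and at 8.21, 8.20 and 7.95 on fetal arrays 1 to 3. Its change was 3.62 (SE 0.25, limma adjusted p = 1.8e-04). The labelled tissue could not be checked against hepatocyte markers, and in whole liver fewer cells of a type and less RNA per cell cannot be told apart. The part of the change in cell mixture in the results below was not tested.

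One fetal array, number 1, was unlike its replicates. Over all tested probes its levels correlated with fetal arrays 2 and 3 at r = 0.893 and 0.915, where those 2 arrays correlated with each other at 0.983 and the adult arrays at 0.967 to 0.983, as a description across probes that share these libraries. On fetal array 1, 8.33% of the 300 negative-control spots were flagged above background, against 0.333% to 2.33% on the other arrays. The arrays were read in 2 scans, the first with adult arrays 1 and 2 and fetal arrays 2 and 3, and the second with adult array 3 and fetal array 1. Results that rest on fetal array 1 are given with and without it.

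Adult arrays 1 to 3 detected 137, 117 and 147 of the 649 probes above background, and fetal arrays 1 to 3 detected 149, 193 and 161. As shares these were 21.11%, 18.03% and 22.65% on the adult arrays and 22.96%, 29.74% and 24.81% on the fetal arrays. Over all probes of the array the shares were 50.22%, 45.03% and 50.83% on the adult arrays and 47.91%, 60.65% and 51.31% on the fetal arrays. Fetal array 2 was thus highest for both. No array gave a signal above background for 416 of the probes, and 80 were above background on all 6. The filter divided 30 probes seen on exactly 3 arrays, with mean levels of -3.45 to -0.92 and a median of -2.64, from 34 probes seen on exactly 2, with mean levels of -3.88 to -2.54 and a median of -3.21. Most members were dim, with a median level over the 159 probes of -1.80 to -1.27 on the 6 arrays. The members fell into 80 above background on all arrays, 10 on the 3 fetal arrays alone, 4 on the 3 adult arrays alone, and 65 on 3 to 5 arrays of both stages.

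Between the stages 41 of the 159 members changed, 14 upward and 27 downward in fetal liver. This share, 25.8%, lies beside a background of 26% of all tested probes, with 11.3% of all probes called higher and 14.8% lower. In this fit the members thus changed about as often as the rest of the array. Their median change was 0.01, against -0.06 over all tested probes. No overlap between the stages was seen in 68 members (42.8%), where 47.6% of all tested probes showed no overlap. Among the 145 members above background in both stages, 29 changed (20%), 6 upward and 23 downward, where 22.5% of all such probes were called, and their called changes reached from -5.35 to 2.93.

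The count of changed members depended on the processing. Normexp is a background correction, run here on median rather than processed signals. It added 50 to every signal, which shrinks the changes of dim probes. With it, 9 of the 159 members were called, all of them among the 41, although all 41 kept their sign. Over the whole array the calls fell from 8418 to 4566 of the 32336 tested probes, or 14.1%. With normexp the members were thus called less often than the rest of the array. Which part of this setting lowered the counts was not tested. With the scan as a block 47 members were called, beside 31.3% of all probes, and the 47 held all 41. Without fetal array 1 the count was 45, beside 31% of all probes, and without adult array 3 it was 27, beside 16.7% of all probes. Within the first scan alone, with 2 arrays per stage, 41 members were called, beside 27.1% of all probes, and 35 of these were among the 41 called over all arrays. The second scan holds 1 array of each stage, which allows no test.

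**Figure D1:**
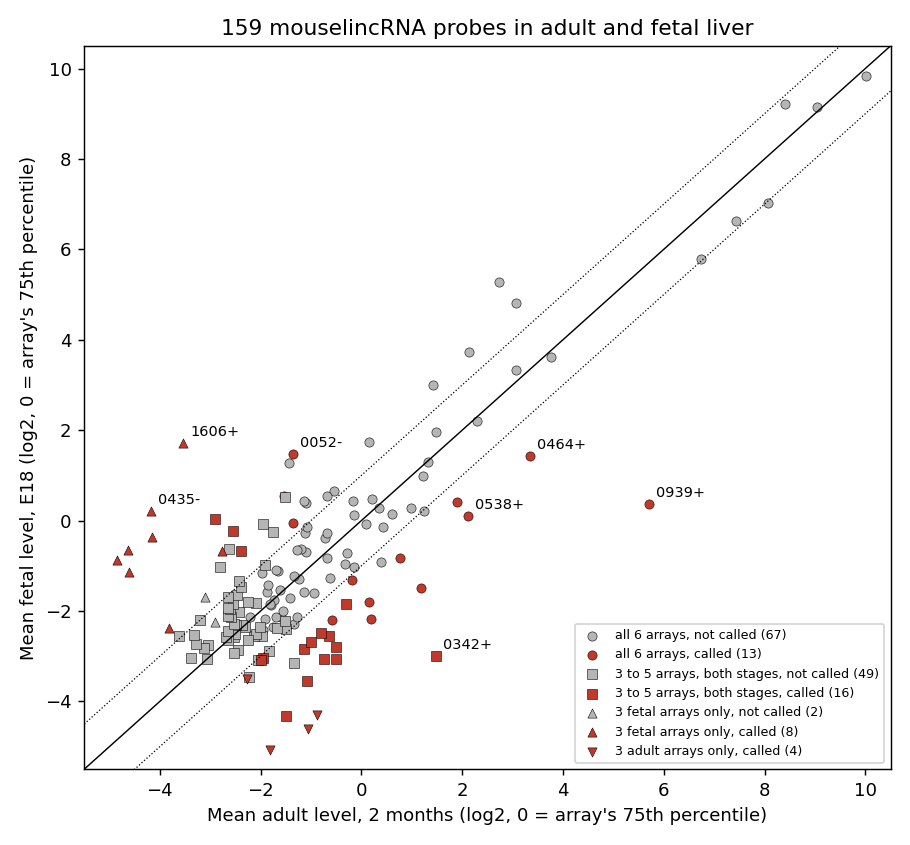
Mean adult level (x axis) against mean fetal level (y axis) of each of the 159 mouselincRNA probes, as log2 signal with 0 at each array's 75th percentile. Red symbols are the 41 called probes, the solid line marks equal levels and the dotted lines a 2-fold change. Most points are dim and lie near the line, mouselincRNA0939+ lies far below it and mouselincRNA1606+, whose adult level was not measured above background, far above it.

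Among the 80 members measured above background on every array, 13 changed (16.2%), where 22.4% of all probes measured on every array were called. Of the 13, 10 were lower in fetal liver, where 3131 of the 5119 called probes of that kind over the whole array were lower. The largest change among the 13 belonged to mouselincRNA0939+. It stood at 5.62, 5.63 and 5.88 on adult arrays 1 to 3 and at 1.09, -0.06 and 0.07 on fetal arrays 1 to 3. All fetal arrays lay far below all adult arrays, and the fetal level was 40.7-fold lower, a change of -5.35 (SE 0.36, limma adjusted p = 1.7e-04). Leaving out any 1 array, and normexp, kept this call, and the change was -5.62 within the first scan and -4.79 between the 2 arrays of the second.

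Several further probes fell by lesser amounts. On adult arrays 1 to 3, mouselincRNA0464+ stood at 3.32, 3.10 and 3.62, and on fetal arrays 1 to 3 at 1.42, 1.44 and 1.40. The fetal arrays lay almost on one another, with an SD of 0.02, and the change was -1.93 (SE 0.25, limma adjusted p = 0.00202). For mouselincRNA0538+ the adult levels were 2.39, 1.74 and 2.24 and the fetal levels -0.17, 0.37 and 0.10. Its change was -2.02 (SE 0.29, limma adjusted p = 0.00330), a 4.05-fold lower level in fetal liver. The probe mouselincRNA0484- read 2.15, 2.05 and 1.47 in adult liver and 0.19, 0.61 and 0.46 in fetal liver. It changed by -1.47 (SE 0.29, limma adjusted p = 0.0108), and the adjusted p was 0.0523 without adult array 2.

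Next to these, mouselincRNA0892- fell by 2.69 (SE 0.35, limma adjusted p = 0.00212), from 1.25, 0.56 and 1.75 on adult arrays 1 to 3 to -1.41, -1.46 and -1.61 on fetal arrays 1 to 3. Its adult arrays differed more among themselves than its fetal ones, with SDs of 0.60 and 0.10. In mouselincRNA0543- the adult levels were -0.06, -0.03 and 0.52 and the fetal levels -1.59, -2.04 and -1.78. In mouselincRNA0722- they were -0.67, -0.74 and -0.33 against -2.10, -1.95 and -2.53. Neither probe's groups overlapped, and the changes were -1.95 (SE 0.28, limma adjusted p = 0.00327) and -1.62 (SE 0.27, limma adjusted p = 0.00631).

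The remaining probes of this kind were nearer the threshold. Levels of mouselincRNA0327- ran through 0.01, -0.68 and 1.22 in adult and -1.63, -2.73 and -2.18 in fetal liver, a change of -2.36 (SE 0.54, limma adjusted p = 0.0193). The adult arrays were widely spread, and limma's adjusted p became 0.0552, 0.0522 and 0.0590 without adult array 1, fetal array 2 and fetal array 3. With adult levels of 0.07, 1.08 and 1.17 and fetal levels of -1.03, -1.05 and -0.38, mouselincRNA0478+ changed by -1.60 (SE 0.39, limma adjusted p = 0.0243). That adjusted p became 0.0921, 0.0903 and 0.0647 without adult array 2, adult array 3 and fetal array 2. The smallest called change among the 10, -1.14 (SE 0.24, limma adjusted p = 0.0155), was that of mouselincRNA0135-, from 0.02, -0.45 and -0.11 to -1.25, -1.34 and -1.37. Its groups did not overlap, and limma's adjusted p was 0.0626, 0.0636 and 0.0615 without adult array 1, adult array 3 and fetal array 3.

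Of the 80 members above background on every array, 3 were called higher in fetal liver, where 1988 of all 22848 such probes were. The strongest, mouselincRNA0052-, stood at -1.12, -1.14 and -1.82 on adult arrays 1 to 3 and at 2.53, 0.98 and 0.88 on fetal arrays 1 to 3. All fetal arrays exceeded all adult arrays, fetal array 1 most, and the change was 2.83 (SE 0.50, limma adjusted p = 0.00741), or 2.29 without fetal array 1 (limma adjusted p = 0.00199). For mouselincRNA1337+ the adult levels were -1.67, -1.41 and -1.50 and the fetal levels 1.51, -0.04 and 0.16, a change of 2.07 (SE 0.44, limma adjusted p = 0.0149). Its adjusted p was 0.0555, 0.0518 and 0.0567 without adult arrays 1, 2 and 3 in turn, and the change was 1.59 without fetal array 1. The probe mouselincRNA0933+ moved from -1.02, -1.47 and -1.55 to -0.41, 0.23 and 0.04, by 1.30 (SE 0.29, limma adjusted p = 0.0181). Here fetal array 1 was the lowest fetal array, and limma's adjusted p was 0.0746, 0.0737, 0.0539 and 0.0665 without adult array 2, adult array 3, fetal array 2 and fetal array 3.

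Of these 13 calls, 7 remained with normexp, which were those of mouselincRNA0939+, mouselincRNA0464+, mouselincRNA0892-, mouselincRNA0538+, mouselincRNA0484-, mouselincRNA0052- and mouselincRNA1337+. The other 67 members above background on every array did not pass the test. A p that misses the threshold does not show equal levels, but for some the 95% interval stayed near 0. The 5 described here are those whose interval limit farther from 0 was smallest, led by mouselincRNA1040- (interval -0.58 to 0.53). Next came mouselincRNA0970-, which read -1.38, -1.30 and -1.33 in adult and -1.19, -1.30 and -1.17 in fetal liver, a change of 0.12 with a 95% interval of -0.41 to 0.64. For mouselincRNA0772-, with levels between 3.47 and 3.80 on all arrays, the change was -0.12 (interval -0.67 to 0.42). The intervals of mouselincRNA0435+ (-0.66 to 0.54) and mouselincRNA0394+ (-0.63 to 0.78) also lay within a 2-fold change in either direction.

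**Figure D2:**
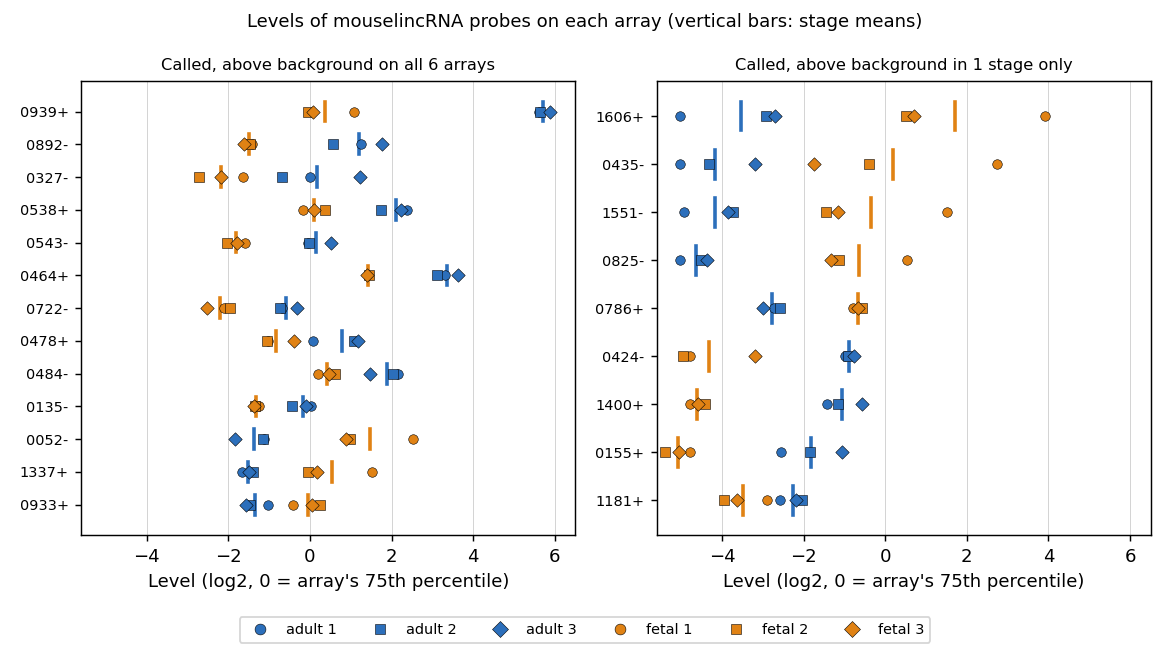
Level of each probe on each array (x axis, log2 signal with 0 at the array's 75th percentile), with adult arrays in blue, fetal arrays in orange and short vertical bars at the stage means. The left panel holds the 13 called probes above background on all 6 arrays and the right panel called probes above background in 1 stage only, where levels of the dim stage are not measured above background. The rows were chosen because they were called, so that the stages do not overlap in any of them describes the choice. Over all tested probes 47.6% showed no overlap. Fetal array 1 (orange circle) lies highest in mouselincRNA0052-, mouselincRNA1337+, mouselincRNA1606+, mouselincRNA0435-, mouselincRNA1551- and mouselincRNA0825-.

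A further 14 members were above background on all 3 arrays of 1 stage and on none of the other. Since they passed the filter only through their bright stage, the choice favoured a difference between the stages. Their call counts were 8 of 10 fetal ones (78.9% of all such probes on the array) and 4 of 4 adult ones (98.4%). These counts are given as a description. For such probes the fold is a lower bound: the dim stage enters with the dimmest flagged signal of each array, or with the probe's own signal where that is larger. No p is given for them, since the signal that the difference would rest on was not measured in the dim stage. None of these 12 calls remained with normexp.

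The fetal probe with the largest bound was mouselincRNA1606+. The 3 fetal arrays gave 3.93, 0.51 and 0.71, and the 3 adult arrays, where it was not well above background, gave -5.02, -2.93 and -2.69. Its fetal level was at least 18.8-fold higher, and at least 8.72-fold higher without fetal array 1. The value of -5.02 on adult array 1 is the median level of that array's negative-control spots.

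In mouselincRNA0435- the fetal levels were 2.74, -0.39 and -1.73 against -5.02, -4.32 and -3.19 in adult liver. The bound put it at least 6.60-fold above adult liver by these levels, or 2.74-fold without fetal array 1. Fetal array 1 was again far above the others in mouselincRNA1551-, at 1.52 beside -1.45 and -1.15, with adult levels of -4.92, -3.72 and -3.84. Its bound was at least 4.47-fold higher, or 2.33-fold without fetal array 1. A like order was seen in mouselincRNA0825-, with fetal levels of 0.53, -1.13 and -1.32, adult levels of -5.02, -4.51 and -4.36, and a bound of at least 3.68-fold, or 2.45-fold without fetal array 1.

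One fetal probe did not follow this order. The fetal arrays of mouselincRNA0786+ read -0.79, -0.58 and -0.66 and the adult arrays -2.72, -2.57 and -3.00. The 3 fetal levels were close together (SD 0.11), and the bound was at least 3.60-fold higher, or 3.74-fold without fetal array 1. Fetal array 1 was highest in 6 of the 8 called fetal probes. It was lowest in mouselincRNA0358+, at -1.75 beside -1.12 and -0.53, with a bound of 2.61-fold, or 3.23-fold without that array. The bounds of the called mouselincRNA1052+ and mouselincRNA1223- were 3.12-fold and 1.11-fold, or 1.5-fold and 0.86-fold without fetal array 1.

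The adult probes of this kind were mouselincRNA0424-, mouselincRNA1400+, mouselincRNA0155+ and mouselincRNA1181+. On adult arrays 1 to 3, mouselincRNA0424- stood at -0.98, -0.91 and -0.76, and on fetal arrays 1 to 3 at -4.79, -4.95 and -3.18. Its adult level was at least 4.11-fold higher. For mouselincRNA1400+, adult levels of -1.42, -1.16 and -0.58 stood over fetal levels of -4.79, -4.41 and -4.60, at least 3.67-fold higher in adult liver. In mouselincRNA0155+ the adult arrays read -2.56, -1.83 and -1.05 and the fetal arrays -4.79, -5.41 and -5.04, a bound of at least 2.16-fold. The weakest, mouselincRNA1181+, with adult levels of -2.59, -2.03 and -2.18 and fetal levels of -2.89, -3.96 and -3.64, had a bound of at least 1.58-fold.

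Among the 65 members seen on 3 to 5 arrays of both stages, 16 were called, where 22.9% of all probes of this kind were. Of the 16, 3 were higher and 13 lower in fetal liver, and over all tested probes 11.3% were called higher and 14.8% lower. The largest change among the 65 was that of mouselincRNA0342+, chosen after its values were seen. Its adult levels were 1.25, 1.59 and 1.62 and its fetal levels -3.19, -2.95 and -2.82, of which 1 was above background. This was a change of -4.48 (SE 0.25, limma adjusted p = 8.3e-05), and normexp kept the call.

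The array holds no lincRNA with a second _P suffix, so agreement between probes of 1 lincRNA on the same strand could not be examined. It does hold a + and a - probe for 317 of the 332 mouselincRNA numbers. The 159 members came from 138 numbers, 52 with the + probe alone above background, 65 with the - probe alone and 21 with both, and at 179 of the 317 numbers neither probe passed. The 2 strands passed in similar shares, 22.7% of the + probes and 26.3% of the - probes. Of the 73 members on the + strand 22 were called (30.1%), 7 higher and 15 lower. Of the 86 on the - strand 19 were called (22.1%), 7 higher and 12 lower. Over all tested probes 26% were called. The strand counts include the 12 calls of members above background in 1 stage only.

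At 21 numbers both probes passed the filter, and at none of them were both called. The + probe was called at 8 numbers and the - probe at 3, so 11 of these 42 probes were called, beside 26% of all tested probes. At 3 of the numbers, mouselincRNA1606, mouselincRNA0435 and mouselincRNA1551, 1 probe was above background in fetal liver alone, so a difference between the strands rests there on an adult level that was not measured, and it is given no p. At the other 18 the fitted changes had opposite signs at 11 and the same sign at 7, and at pairs of the other lincRNA classes they were opposite at 14 of 29. The difference between the 2 changes was tested from the within-array difference of the + and - probes, fitted with limma over all 53 such lincRNA pairs of the array. It passed an adjusted p under 0.05 at 7 of the 18 numbers, where 23.4% of all 47 pairs with both probes above background in both stages passed, these 18 included. With the 3 other numbers it passed at 10 of 21, beside 30.2% of all 53 pairs.

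How many of the 18 passed depended on single arrays. Without fetal array 1 it was 8, and with the scan as a block 7, but without adult arrays 1, 2 and 3 the count was 1, 2 and 3, and without fetal arrays 2 and 3 it was 3 and 1. With normexp 2 passed, those of mouselincRNA0939 and mouselincRNA1337. Both probes were above background on all 6 arrays at 5 numbers, of which 1 passed when only such pairs were fitted.

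The pair at mouselincRNA0939 passed under each of these settings. While the + probe fell by 5.35, the - probe read -1.42, -1.85 and -1.49 in adult and -1.52, -2.39 and -2.46 in fetal liver, a change of -0.54 (interval -1.34 to 0.27). The change of the + probe minus that of the - probe was -4.81 (SE 0.43, limma adjusted p = 7.3e-04). The groups of the - probe were close to each other where those of the + probe were far apart.

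At 3 more numbers a + probe that fell stood opposite a - probe that did not pass the test. The probe mouselincRNA1244+ read -0.43, -0.65 and -0.46 in adult and -3.87, -2.65 and -2.68 in fetal liver, a change of -2.56 (SE 0.38, limma adjusted p = 0.00383). Its - probe, at -3.87, -2.72 and -2.56 against -2.93, -2.73 and -2.62, had an estimated change of 0.29 (interval -0.64 to 1.23). Only 1 adult and 2 fetal levels of this - probe were above background. The difference was -2.85 (SE 0.59, limma adjusted p = 0.0180), with an adjusted p of 0.0600 without adult array 1 and 0.0544 without fetal array 3.

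At mouselincRNA0544 the + probe went from -1.48, -0.38 and -0.07 to -2.66, -2.58 and -2.43, a change of -1.91 (limma adjusted p = 0.0140, and 0.0609 and 0.0525 without adult arrays 2 and 3). Its - probe, at 0.61, 1.78 and 2.03 in adult and 3.12, 1.03 and 1.75 in fetal liver, overlapped between the stages. The difference between the changes was -2.41 (limma adjusted p = 0.0312), with an adjusted p of 0.0988, 0.0947, 0.100 and 0.0665 without adult arrays 1, 2 and 3 and fetal array 3. At mouselincRNA1512 the + probe went from -1.26, -0.98 and -1.16 to -3.08, -2.76 and -2.69, a change of -1.71 (limma adjusted p = 0.00319). The - probe, at -3.00, -2.44 and -2.32 against -1.63, -2.56 and -2.23, overlapped between the stages, with 1 adult level above background. Their difference was -2.16 (limma adjusted p = 0.0259), with an adjusted p of 0.0508 to 0.0919 when any array other than fetal array 1 was left out.

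At 3 numbers the + probe was the one called higher in fetal liver. One of these was mouselincRNA1606, whose + probe, above background in fetal liver alone, is described above. Its - probe was bright in both stages, at 8.14 and 7.98 on adult arrays 1 and 2 and 6.16, 7.39 and 7.55 on fetal arrays 1 to 3, and its spot on adult array 3 was an outlier and was left out of the fit. The estimate for the - probe was -1.03 (interval -2.25 to 0.19). Fetal array 1 was the highest fetal array for the + probe and the lowest for the - probe.

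The - probe at mouselincRNA1337 read -2.48, -1.87 and -2.35 in adult and -4.79, -3.03 and -2.57 in fetal liver, a change of -1.23 (interval -2.63 to 0.17), where the + probe rose by 2.07. The value of -4.79, on fetal array 1, was not above background and is the median level of that array's negative-control spots. The difference was 3.30 (SE 0.98, limma adjusted p = 0.0461) and rests partly on that value. It became 2.15 (limma adjusted p = 0.0148) without fetal array 1, on which the + probe was highest and the - probe lowest. Its adjusted p was 0.126, 0.137, 0.104, 0.0579 and 0.0559 without adult arrays 1, 2 and 3 and fetal arrays 2 and 3. At mouselincRNA0305 the + probe rose by 1.73 (SE 0.31, limma adjusted p = 0.00751), from -2.23, -2.34 and -2.61 to -1.17, -0.49 and -0.34. The - probe, with an estimate in the other direction that did not pass the test, went from -0.54, -0.75 and -0.60 to -1.00, -1.51 and -1.30, with no overlap and a change of -0.64 (interval -1.24 to -0.04). The difference was 2.37 (limma adjusted p = 0.0191), with an adjusted p of 0.0567 to 0.0684 when any array other than fetal array 1 was left out.

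The - probe was the one called higher at the last 3 numbers. At mouselincRNA0435 the - probe was above background in fetal liver alone, while the + probe read 0.21, 0.45 and 0.39 in adult and 0.52, 0.30 and 0.04 in fetal liver and had 1 of the 5 intervals nearest to 0. At mouselincRNA1294 the - probe rose by 2.93 (SE 0.45, limma adjusted p = 0.00436), from -2.91, -3.43 and -2.37 to -0.60, -0.11 and 0.80. Only 1 of its adult levels was above background. Its call was 1 of 2 outside the probes measured on every array that remained with normexp. Its + probe overlapped between the stages, at -0.44, -0.17 and -1.43 against -0.64, -1.91 and 0.06, and the difference was -3.08 (limma adjusted p = 0.0259, and 0.0919, 0.0899, 0.0833 and 0.0665 without adult arrays 1 and 2 and fetal arrays 2 and 3). At mouselincRNA1551 the - probe was above background in fetal liver alone, and the + probe had an estimate of 1.77 (interval -0.25 to 3.79).

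The other 11 pairs did not pass the test of the difference, and their intervals were mostly wide. At mouselincRNA0394 the difference was 0.53 (interval -0.49 to 1.54), and at mouselincRNA1040 it was -0.06 (interval -2.28 to 2.17). At mouselincRNA0522 the + probe was called by itself, with a change of -1.08 (limma adjusted p = 0.0280), from -1.99, -1.93 and -2.07 to -3.47, -2.75 and -3.01, of which 1 was above background. That call was lost without each array apart from fetal array 2, through an adjusted p of 0.0790 to 0.0998 or, without fetal array 1, through a change of -0.88. Its - probe varied widely within both stages, at -1.93, 2.01 and 0.55 in adult and -0.24, -0.20 and 1.88 in fetal liver, and the difference was -1.35 (interval -4.01 to 1.30).

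In the remaining 8 pairs neither probe was called. The differences were -1.36 at mouselincRNA0907, -1.09 at mouselincRNA0706, -0.46 at mouselincRNA0768, 0.13 at mouselincRNA1235, 0.18 at mouselincRNA0172, 1.21 at mouselincRNA1377, 1.36 at mouselincRNA0130 and 1.59 at mouselincRNA1086. Without fetal array 1 these differences were, in the same order, -0.89, -1.72, -0.22, 0.80, 0.72, 0.15, 0.06 and 0.23. Of these, only that at mouselincRNA0706 passed (limma adjusted p = 0.0464).

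**Figure D3:**
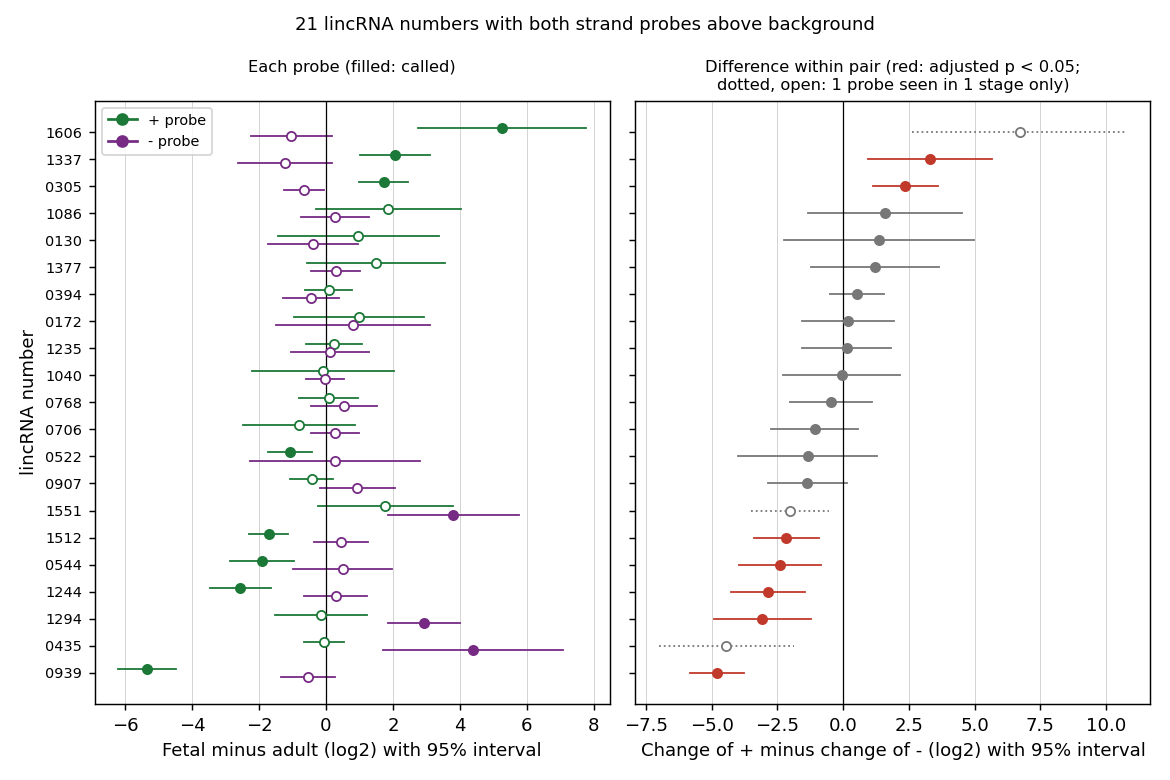
The 21 lincRNA numbers (y axis) at which both the + and the - probe were above background on at least 3 arrays. The left panel shows each probe's fetal minus adult change (log2, filled where called) and the right panel the change of the + probe minus that of the - probe, both with 95% intervals. The 7 red differences, at an adjusted p under 0.05, run from -4.81 at mouselincRNA0939 to 3.30 at mouselincRNA1337, the latter 2.15 without fetal array 1. Dotted lines with open symbols mark the 3 pairs with a probe above background in 1 stage only.

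The members differed among arrays in a way that the stages do not describe. On fetal array 1, 33 of the 159 members (20.8%) were at least 2-fold above each of the other 5 arrays, where 9.13% of all tested probes were. No other array was so far above the rest for more than 1 member. The share was 20.1% of 244 probes named humanlincRNA, 49 in number, and 3 of 31 probes named MM9LINCRNAEXON. Adult array 1 was at least 2-fold below each of the other arrays for 20 of the 159 members, where 1027 of 32322 tested probes (3.18%) were. Fetal array 1 was so for 6 of the 159 members, where 3073 of 32330 tested probes (9.51%) were.

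Of the 33 members, 18 were above background on all 6 arrays, 15 lay on the + strand and 18 on the - strand, and 25 were not called. Their gap to the next highest array had a median of 2.48, between 1.07 and 3.33. In 19 of the 33 the range of fetal arrays 2 and 3 overlapped the range of the adult arrays. The members with the widest gaps among those not called, chosen after their values were seen, were mouselincRNA0288+, mouselincRNA0154+ and mouselincRNA1630+. For example, mouselincRNA1630+ read 6.13 on fetal array 1, beside 2.09 and 2.95 on fetal arrays 2 and 3 and 0.91, 2.47 and 3.04 on the adult arrays. For mouselincRNA0288+ fetal array 1 stood at 2.88, fetal arrays 2 and 3 at -0.82 and -0.52, and the adult arrays at -1.88, -2.21 and -0.45. The share of negative-control spots above background was also highest on fetal array 1, as given above, and its part in these levels was not tested.

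Leaving out fetal array 1 kept 40 of the 41 calls, lost that of mouselincRNA0522+ and added 5. The added ones, chosen after their values were seen, were mouselincRNA0706+, mouselincRNA1040+, mouselincRNA0078+ and mouselincRNA0344-, all lower in fetal liver, and mouselincRNA0725-, higher. The clearest was mouselincRNA0706+, at 7.72, 7.34 and 7.22 on the adult arrays and 8.29, 5.93 and 5.64 on fetal arrays 1 to 3. Its fetal arrays lay on both sides of the adult ones, and its change was -0.81 (interval -2.47 to 0.85) with fetal array 1 and -1.64 without it (limma adjusted p = 0.00446). In mouselincRNA1040+, fetal array 1 stood at 4.37 and fetal arrays 2 and 3 at 1.44 and 0.81, on both sides of adult levels of 2.63, 2.18 and 2.06. Its change was -0.08 with that array and -1.17 without it (limma adjusted p = 0.0285).

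**Figure D4:**
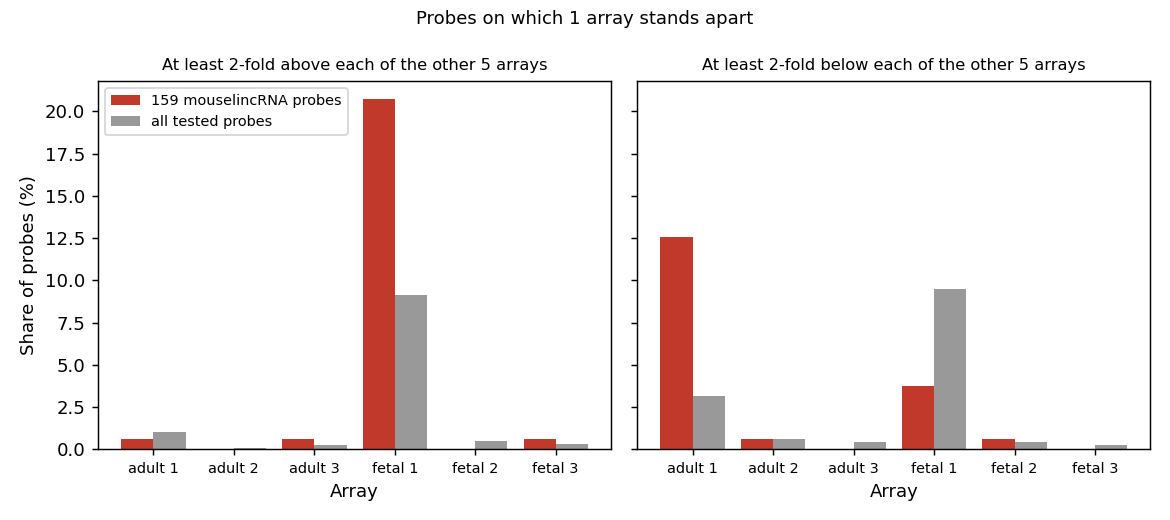
Share of probes (y axis, percent) for which the array named on the x axis was at least 2-fold above (left) or below (right) each of the other 5 arrays, for the 159 mouselincRNA probes in red and for all tested probes in grey. Fetal array 1 stood above the rest for 20.8% of the mouselincRNA probes and 9.13% of all tested probes. Adult array 1 stood below the rest for 20 of the 159 mouselincRNA probes and 3.18% of all tested probes.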

How the data were processed

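Per the labels' protocols, liver RNA was freed of rRNA, turned into Cy3-labelled cRNA by random priming, and read on 1-colour Agilent arrays of an Arraystar lncRNA design. The deposited scanner files (Agilent Feature Extraction 11.0.1.1, per the submitters' processing notes) hold intensity per spot, background-subtracted by the software with low values raised to a floor. The authors' deposited table of log2 values, with no scaling stated, served as an alternative and holds all 159 members. Its column medians were 5.94 to 6.11, and its values lay within a median of 0.0022 of quantile-normalized log2 signals.

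The fit left out control spots (1439), negative-control spots (300) and spots marked as outliers, 29 to 68 an array. Log2 processed signals were set relative to the 75th percentile of their array and averaged over a probe's spots. Saturation was not seen. The 32336 probes flagged above background on 3 or more arrays were fitted with limma 3.58.1 in R 4.3.3 (lmFit, eBayes, two-sided), after tests on simulated data. The number of arrays limits the precision.

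Members and lists were chosen with earlier results of these data known. Named probes were the 10 largest called changes in each direction among probes above background on all arrays, the 5 largest bounds in each direction, all numbers with both strands, and the 5 probes whose 95% interval stayed nearest to 0 (smallest limit farther from 0). The planned test of probes sharing a name up to the suffix had no pairs, so strand pairs took its place after the data were seen. Alternatives in scaling were quantile scaling, the authors' table and the 75th percentile over only the probes above background on all arrays. Normexp (offset 50, on median signals), stricter and no filters, and scan or replicate blocks were further alternatives. So were array weights, limma-trend, the design text's filter, and leaving out each array. The files hold no sequences for these probes, and none are printed.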

Additional observations from a re-analysis of the deposited data

How the results depend on the processing

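The count of changed mouselincRNA probes was 41, with 14 higher and 27 lower in fetal liver. It stayed within 1.5 times of that with quantile scaling, the authors' table and the 75th percentile over probes above background on all arrays. The same held with no filter, the scan as a block, the first scan alone, limma-trend, array weights and the design text's unadjusted filter. The count was 9 (3 higher, 6 lower) with normexp. It was 13 (3 higher, 10 lower) when only probes above background on all arrays were fitted, which by construction leaves fewer probes. With an unmoderated test after Benjamini-Hochberg adjustment 8 were called higher. Leaving out each array gave 27 to 45 called probes, 8 to 15 higher and 19 to 30 lower. The lowest count, without adult array 3, stood beside 16.7% of all tested probes, and the highest, without fetal array 1, beside 31%. In every such fit 24 of the 41 were called, of which 7 were above background on all arrays. The 24 also hold probes above background in 1 stage only, for which the choice favoured a difference.

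The strand pairs that differed numbered 10, including 3 with a probe above background in 1 stage only, and 2 with normexp, 1 with both probes above background on all arrays, and 1 to 10 without each array, which were alternatives chosen after the data were seen. Apart from normexp, these alternatives left fewer arrays or pairs, and the cause of the losses was not tested.

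With the replicate number as a block, 24 probes were called (7 higher, 17 lower) and 1 strand pair passed. Same-numbered adult and fetal arrays deviated from their stage means with correlations of -0.525, -0.349 and -0.313, and no array correlated best with its own number. Deviations within a stage cancel out over its arrays, which constrains these correlations. They cannot decide if same-numbered samples were paired, which is not stated.

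Of the results for single probes and pairs, no called one changed sign under any alternative. In 51 cases, from 20 results that did not pass, the sign changed under alternatives other than the second scan alone, with values from -0.80 to 0.61. Between the 2 arrays of the second scan, which allow no test, the sign changed for 11 named probes (-0.79 to 2.31) and 4 pairs (-0.98 to 2.24), none of them called. Signal over background limits these results, since most members were dim.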
